A study of Mus musculus with 8 samples.

Results

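RAW macrophages that had shared medium with CT26 colon tumour cells were compared with RAW macrophages grown alone, gene by gene, and the description is taken beyond the interferon genes. RAW264, called RAW here, is an established mouse macrophage line, and CT26 is an established mouse line of colon tumour epithelium. The comparison used 4 of the 8 arrays of the series, 2 of RAW alone and 2 of RAW in co-culture, and the other 4 arrays held CT26 alone and CT26 in co-culture. The members were all genes with a probe set of 1 gene symbol, 18193 genes in all, each represented by its probe set with the highest mean over the 8 arrays. Of these, 13196 were bright enough in at least 1 group to be tested. In co-culture, CT26 cells lay in 1.5 ml in the wells of 12-well plates and RAW cells in 0.5 ml in transwell inserts, which were brought together 8 hours after seeding. Molecules could pass the membrane and cells could not touch. All cells were kept in RPMI 1640 medium, RNA of RAW cells was taken by lysing them on the insert, and 5 µg of total RNA was labelled for each array. How long the co-culture lasted, and whether RAW cells alone also lay on inserts, is not given in the sources used here. Each line is a single established line, and the whole experiment was performed on 2 occasions, called experiments 1 and 2.

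Macrophages read their surroundings through receptors for cytokines, growth factors, lipids and dying cells, and they answer with chemokines, cytokines, growth factors and proteases. Medium shared with tumour cells can carry such signals, and it can also lose nutrients or gain waste products. Type I interferon signalling is one well-known macrophage programme, and many of its target genes share a promoter element, the interferon-stimulated response element. Other known programmes are the NRF2 response, which runs glutathione and detoxification genes, the ATF4 response to a shortage of amino acids, and the hypoxia response.

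All values are log2 expression on a scale normalized over the 8 arrays, so they are relative levels. Neither fewer cells on an insert nor less RNA per cell can be seen in them. Changes are co-culture minus alone within each experiment, averaged over the 2 experiments, with the standard error (SE) of a limma model that fitted the experiment as a block in each line. A gene is called where its two-sided p, adjusted by Benjamini-Hochberg over all 13196 genes, was under 0.05. The SE and p rest on how far the co-culture change differed between the 2 experiments. This spread was pooled over the RAW and CT26 arrays and moderated by limma across genes, so it is not that of RAW alone. A gene lies under the floor of an array where it is at or below that array's 40th percentile, which was 5.21 to 5.25 in the RAW arrays.

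The label of the cells was checked against their markers. Of 24 macrophage markers on the array, 23 lay above the floor in all 4 RAW arrays. Csf1r, the receptor of colony-stimulating factor 1, stood at 14.68 and 14.65 in RAW alone and at 14.48 and 14.54 in co-culture, and Lyz2, which encodes lysozyme, lay between 15.21 and 15.31. Krt20, Tjp1 and Col1a2, which are bright in CT26, were not clearly raised in co-cultured RAW cells. The intestinal keratin gene Krt20, at 11.46 to 11.55 in the CT26 arrays, stood at 5.07 and 4.70 in RAW alone and at 4.68 and 4.84 in co-culture. Tjp1, which encodes a tight junction protein, lay at 4.68 and 4.53 alone and at 4.42 and 4.38 in co-culture, and the collagen gene Col1a2, at 13.52 or more in CT26, lay at 6.52 and 6.33 against 6.43 and 6.18. The epithelial markers Epcam, Krt8 and Cdh1 did not clearly separate the lines. Epcam stood at 6.82 to 6.97 in CT26, at 6.88 and 6.88 in RAW alone and at 7.15 and 6.82 in co-culture. Krt8 stood at 5.87 to 6.14 in CT26 and at 5.69 to 5.86 in RAW, and Cdh1 lay under the floor in all 8 arrays. The log2 of the summed linear level over 23 epithelial markers ran from 10.11 to 10.14 in RAW alone and from 10.13 to 10.21 in co-culture, against 12.97 to 13.08 in CT26. Over 30 mesenchymal and matrix markers it ran from 11.42 to 11.87 alone and from 10.83 to 10.88 in co-culture, and 1 of 22 tested members was called, the caveolin gene Cav1, which was lower. No call was made among the 6 tested markers of lymphoid cells or the 6 of endothelial cells.

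Co-culture changed 470 of 13196 genes in RAW cells, 3.56% of those tested, with 205 higher (1.55%) and 265 lower (2.01%). The interferon list held 164 of the tested genes, and 76 of them rose and 2 fell, Xdh and Treml4. Outside that list 392 of 13032 genes were called (3.01%) and the balance was the other way, with 129 rises (0.990%) and 263 falls (2.02%). The interferon rises were also larger, with a median of 1.35 log2 units against 0.60 for the other rises and -0.66 for the other falls. Rtp4, Usp18 and Ifi44l, the 3 largest rises on the list, each rose at least 16.5-fold. Outside the list, 11 genes rose past 1 log2 unit in each experiment (0.0844%), 35 fell past it in each (0.269%) and 0 passed it in opposite directions.

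The number of calls depended on treating the experiments as pairs. Without the block, 33 genes were called (0.250%), of which 16 lay outside the interferon list (0.123%). The 5 rises among them (0.0384%) were Car2, Ltb, Cfp, Eps8 and Fbxw17, and the 11 falls (0.0844%) were Olfml3, Vegfc, Fgf13, Slc40a1, Mfap3l, Serpinb1b, Itgal, Ephx1, Cav2, Nrp1 and Ltc4s. With a block shared by both lines, 22 rises (0.169%) and 78 falls (0.599%) outside the list were called. Leaving out either RAW array of experiment 1 lowered the falls outside the list from 263 to 141, and leaving out either of experiment 2 gave 278, each from a single pair whose spread was taken from the CT26 arrays. Over the 13032 genes outside the list, the changes in the experiments correlated at r = 0.492 across genes, which are not independent replicates. The plot of experiment 2 against experiment 1 shows the called genes in the quadrants of equal sign.

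**Figure D1:**
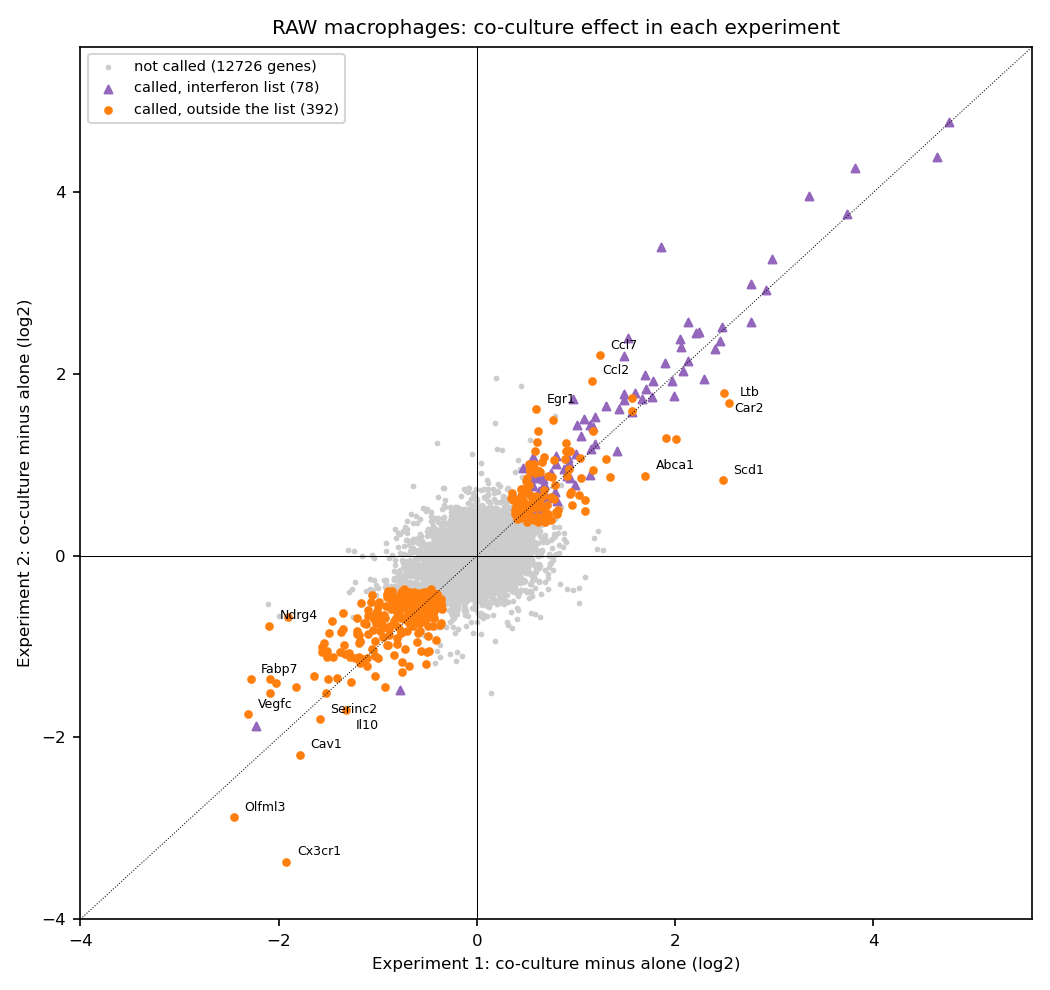
Each point is a tested gene, with its RAW co-culture minus alone change (log2) in experiment 1 on the x axis and in experiment 2 on the y axis. Triangles are the 78 called genes of the interferon list, circles the 392 called genes outside it and grey points the rest. The dotted line marks equal changes, and Olfml3 and Cx3cr1 lie lowest while Car2 and Ltb lie farthest right among the circles.

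Promoter stretches are shown first, to give the letters behind the programmes by which the genes are grouped. Windows of 250 bases before to 50 after the start of each gene, from RefSeq (assembly GRCm38.p6), were searched on both strands after the expression values had been seen. The interferon-stimulated response element was searched as GAAA, 2 bases of any kind and GAAA. It was found in 28 of 67 promoters of the interferon rises (41.79%), in 7 of 95 of the rises outside the list (7.37%), in 5 of 211 of the falls (2.37%) and in 372 of 10602 of all tested genes (3.51%). The 7 rises outside the list with this element were Bco2, Cytip, Erap1, Homer1, Kctd6, Nyap1 and Vegfa. The antioxidant response element, searched as TGACNNNGC, was present in 11 of 39 promoters of the NRF2 list (28.21%), in 14 of 42 of the ATF4 list (33.33%) and in 16.68% of all tested genes. The element read by ATF4 and its partners, searched as TGATGNAA, was present in 15 of 42 promoters of the ATF4 list (35.71%) and in 2.71% of all tested genes. A match is a description of these letters and not a measured binding site. Examples follow with the element in capitals, as read on the strand of the gene and 5′ to 3′, where a capital stretch that reads as the reverse complement lies on the other strand. The first 4 hold the interferon element in genes outside the list that rose, the fifth the antioxidant element and the last 2 the ATF4 element.
Cytip (chr2:58160260-58160329, minus strand): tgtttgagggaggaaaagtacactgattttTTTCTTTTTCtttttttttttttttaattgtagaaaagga
Kctd6 (chr14:8216016-8216085, plus strand): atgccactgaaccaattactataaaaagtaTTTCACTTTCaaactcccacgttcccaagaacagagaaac
Vegfa (chr17:46032480-46032549, minus strand): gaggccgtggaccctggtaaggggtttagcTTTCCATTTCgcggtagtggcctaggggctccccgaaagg
Bco2 (chr9:50553831-50553900, minus strand): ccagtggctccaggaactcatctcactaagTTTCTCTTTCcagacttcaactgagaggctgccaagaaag
Gclm (chr3:122245393-122245461, plus strand): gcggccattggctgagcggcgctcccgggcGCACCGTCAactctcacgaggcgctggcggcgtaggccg
Chac1 (chr2:119351019-119351086, plus strand): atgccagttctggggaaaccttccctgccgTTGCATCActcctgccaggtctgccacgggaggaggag
Herpud1 (chr8:94386287-94386354, plus strand): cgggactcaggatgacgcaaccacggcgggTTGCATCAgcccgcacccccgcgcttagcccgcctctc

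The 2 largest falls were in genes known as markers of microglia and resident macrophages. Olfml3, which encodes a secreted glycoprotein, stood at 9.66 and 10.34 alone and 7.21 and 7.47 in co-culture and fell by 2.67 ± 0.12 log2 units (adjusted p = 0.000104). Cx3cr1, the receptor of the chemokine fractalkine, stood at 10.66 and 11.78 alone and 8.74 and 8.42 in co-culture and fell by 2.64 ± 0.29 (adjusted p = 0.00501). For both genes, each co-culture array lay below each array of RAW alone. That held for 1624 of all 13196 tested genes (12.3%), and the reverse for 1875 (14.2%). A second probe set of Cx3cr1 changed by -3.07. Cx3cr1 was not called without the block (adjusted p = 0.061).

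Several secreted growth factors fell with them. Vegfc, a growth factor of lymphatic vessels, stood at 7.79 and 7.26 alone and 5.48 and 5.51 in co-culture and fell by 2.03 ± 0.14 (adjusted p = 0.000682). Igf1, insulin-like growth factor 1, stood at 12.36 and 12.15 alone and 10.27 and 10.80 in co-culture and fell by 1.72 ± 0.17 (adjusted p = 0.00308). Other probe sets changed by -1.97 and -0.92 for Vegfc and by -1.86, -2.17 and -2.33 for Igf1, so the direction was the same in all of them. Fgf13, of the fibroblast growth factor family though not itself secreted, had nearly equal values within groups, 8.53 and 8.56 alone and 7.01 and 7.05 in co-culture, and fell by 1.52 ± 0.08 (adjusted p = 0.000235). A dimmer probe set of Fgf13 changed by -0.47. Pdgfa and Pdgfb, the chains of platelet-derived growth factor, changed by -0.81 ± 0.11 and -0.83 ± 0.16. In the list of secreted growth and guidance factors, 6 of 50 tested members fell (12%) and 2 rose (4%). The rises were Vegfa and the metabolic hormone gene Metrnl (0.78 ± 0.10). Over all tested genes outside the interferon list 2.02% fell and 0.990% rose. The median of the secreted factors was -0.01, against 0.01 over those genes. Without the block 3 falls and 0 rises were called.

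Il10, an anti-inflammatory cytokine, stood at 6.29 and 6.86 alone and 4.97 and 5.16 in co-culture, so both co-culture arrays lay under the floor and the size of the change, -1.51 ± 0.12 (adjusted p = 0.0016), is not well measured. The lymphotoxin gene Ltb, a membrane-bound member of the TNF family, moved the other way, from 5.92 and 5.93 alone to 8.46 and 7.62, a rise of 2.12 ± 0.18 (adjusted p = 0.00202). The 2 arrays of RAW alone were nearly equal, and both co-culture arrays lay above them, as for 14.2% of all tested genes. Il10 and Ltb were the 2 called members among 19 tested cytokine and TNF-family ligands, 5.26% in each direction. All tested genes outside the interferon list gave 0.990% rises and 2.02% falls. The median of the 19 ligands was 0.09. Without a RAW array of experiment 1 the rises numbered 3.

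Among 19 chemokine ligands, 3 rose (15.8%) and 1 fell (5.26%), with a median of 0.12. Over all tested genes outside the interferon list 0.990% rose and 2.02% fell. Ccl7, which attracts monocytes, stood at 6.30 and 6.56 alone and 7.54 and 8.77 in co-culture and rose by 1.73 ± 0.22 (adjusted p = 0.00983). Ccl2, another monocyte attractant, stood at 10.75 and 11.94 alone and 11.92 and 13.87 in co-culture. Its groups overlapped, since experiment 2 was brighter in both conditions, and within experiments it rose by 1.16 and 1.93, a mean of 1.54 ± 0.26 (adjusted p = 0.0265). Pf4, platelet factor 4, changed by 0.84 ± 0.13 and Cxcl16, a membrane-bound chemokine that also binds oxidized lipid, by -0.76 ± 0.14. None of the 4 was called without the block. The rises numbered 5 without a RAW array of experiment 1 and 1 without one of experiment 2, where Ccl2 (adjusted p = 0.0832), Pf4 (0.0803) and Cxcl16 (0.0986) lost their calls.

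Of 73 tested cytokine and growth factor receptors 0 rose and 4 fell (5.48%), with a median of -0.06, where 0.990% of all tested genes outside the interferon list rose and 2.02% fell. Without a RAW array of experiment 2 this list gave 2 rises and 5 falls. Il13ra2, a decoy receptor of interleukin 13, stood at 7.88 and 8.33 alone and 5.79 and 6.81 in co-culture and fell by 1.80 ± 0.14 (adjusted p = 0.0012). Nrp1, neuropilin 1, a co-receptor of VEGF and semaphorins, stood at 8.44 and 8.37 alone and 7.14 and 7.30 in co-culture and fell by 1.18 ± 0.10 (adjusted p = 0.00159, and 0.0257 without the block). The groups of both genes did not overlap, as for 12.3% of all tested genes with co-culture lower. The TGF-beta receptor gene Tgfbr1 (-0.89 ± 0.10) and the semaphorin receptor gene Plxnd1 (-0.70 ± 0.10) made up the 4. Among 42 G protein-coupled receptors of myeloid cells, 4 fell and 2 rose (median -0.03). After Cx3cr1 the largest falls were the prostacyclin receptor gene Ptgir (-0.83 ± 0.11), whose groups overlapped, and Adgre1, a surface receptor that marks mouse macrophages (-0.75 ± 0.13). The formyl peptide receptor gene Fpr2 rose by 0.56 ± 0.09 from near the floor, and the other rise, F2r, a thrombin receptor gene, lay under the floor in all 4 RAW arrays. The falls called in this list numbered 2 without a RAW array of experiment 1, and neither rise was called without a RAW array of either experiment.

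Fc, scavenger and lectin receptors take up antibody-coated, oxidized or dying material. Of 60 tested members 7 fell (11.7%) and 2 rose (3.33%), with a median of -0.06, and 0 were called without the block. The shares over all tested genes outside the interferon list were 2.02% and 0.990%. Havcr2, the inhibitory receptor TIM-3, stood at 9.83 and 9.83 alone and 8.37 and 9.11 in co-culture and changed by -1.09 ± 0.16 (adjusted p = 0.0186). The CD300 receptors, which bind lipids of dying cells, split. Cd300a stood at 11.71 and 11.66 alone and 10.68 and 10.55 in co-culture and fell by 1.07 ± 0.09 (adjusted p = 0.00202), whereas Cd300lf stood at 7.41 and 7.68 alone and 8.31 and 8.93 in co-culture and rose by 1.07 ± 0.11 (adjusted p = 0.00339). Cd300c2 (-0.71 ± 0.11) and Cd300lb (-0.59 ± 0.08) also fell, as did the fatty acid scavenger receptor gene Cd36 (-0.67 ± 0.11). Siglec1, a sialic acid receptor known to respond to interferon, rose by 0.78 ± 0.10, but with its probe sets averaged it changed by 0.46 and was not called (adjusted p = 0.0867). The falls numbered 3 without a RAW array of experiment 1 and 9 without one of experiment 2.

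**Figure D2:**
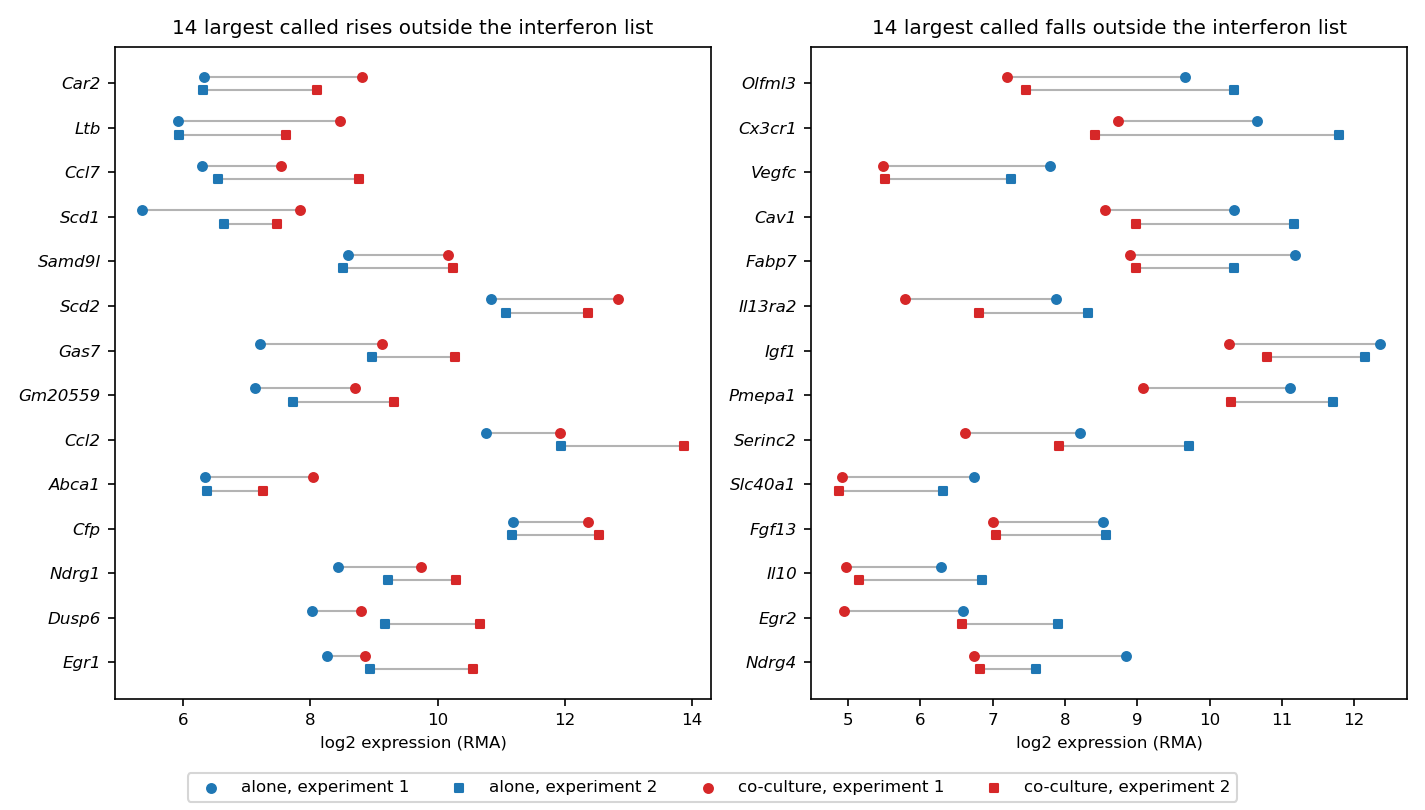
Each row is 1 of the 28 genes outside the interferon list with the largest called rises or falls, and the x axis is log2 expression in each of the 4 RAW arrays. Marker shape gives the experiment and colour the condition, so the co-culture marker of each experiment lies right of its alone marker for the 14 rises and left of it for the 14 falls.

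Adhesion genes moved one way where they were called. Of 40 tested integrin and leukocyte adhesion genes 8 fell (20%, against 2.02% of all tested genes outside the interferon list) and 0 rose. The median of the 40 was -0.10, and 1 fall was called without the block. The absence of rises did not hold when a RAW array of experiment 2 was left out. Itgal, the alpha chain of LFA-1, stood at 9.91 and 9.60 alone and 8.46 and 8.49 in co-culture and fell by 1.28 ± 0.13 (adjusted p = 0.00329, and 0.0419 without the block). Itgax, which encodes CD11c, fell by 1.18 ± 0.14 (adjusted p = 0.00746). Itga5, of the fibronectin receptor, stood at 9.01 and 11.10 alone and 7.81 and 9.98 in co-culture, so that the experiments differed by more than the conditions, and it fell within both, by 1.15 ± 0.08 on average (adjusted p = 0.00101). Itgav stood at 13.18 and 13.19 alone and 12.24 and 12.29 in co-culture and fell by 0.92 ± 0.08 (adjusted p = 0.00224). With its probe sets averaged Itgav changed by -0.38 and was not called (adjusted p = 0.0592). The others were Itgb5 (-0.69 ± 0.08), Nectin3 (-0.86 ± 0.08), Cadm1 (-0.64 ± 0.08) and Cd9 (-0.46 ± 0.09).

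Caveolins coat small pits of the cell membrane. Cav1 stood at 10.34 and 11.17 alone and 8.55 and 8.98 in co-culture and fell by 1.99 ± 0.11 (adjusted p = 0.000285), and Cav2 stood at 11.62 and 11.77 alone and 10.51 and 10.55 in co-culture and fell by 1.16 ± 0.09 (adjusted p = 0.00146). The co-culture arrays of both lay below RAW alone, as for 12.3% of all tested genes. Cav1 is also bright in CT26, at 13.44 on average in CT26 alone. Gsn, which encodes the actin-severing protein gelsolin, changed by -0.88 ± 0.09 and the unconventional myosin gene Myo10 by -0.95 ± 0.16. The fascin gene Fscn1 changed by -1.29 ± 0.25, but by -0.16 when its brightest probe set over the RAW arrays was used, and 1 co-culture array lay under the floor.

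Proteases and their inhibitors gave 5 falls (10.6%) and 0 rises among 47 tested, with a median of -0.05. The absence of rises did not hold when a RAW array of either experiment was left out. Over all tested genes outside the interferon list 2.02% fell and 0.990% rose. Serpinb1b, an intracellular serine protease inhibitor, stood at 6.47 and 6.56 alone and 5.20 and 5.17 in co-culture and fell by 1.33 ± 0.09 (adjusted p = 0.000681), to under the floor, so the size is not well measured. Serpinb9b fell by 1.18 ± 0.10, the collagen-degrading cathepsin gene Ctsk by 0.88 ± 0.17, the related inhibitor Serpinb9 by 0.55 ± 0.09 and the metalloprotease inhibitor Timp2 by 0.55 ± 0.08. With its probe sets averaged Serpinb9 changed by -0.37 and was not called (adjusted p = 0.0527). Serpin B genes have close paralogs, so their probe sets may share signal. The falls numbered 2 without a RAW array of experiment 1. Cfp, which encodes properdin, the stabilizer of the alternative complement pathway, was the 1 called member of 9 complement genes. It stood at 11.19 and 11.16 alone and 12.37 and 12.53 in co-culture and rose by 1.27 ± 0.11 (adjusted p = 0.00173, and 0.0257 without the block).

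Of 20 tested MHC class II and costimulation genes 10% rose and 5% fell, against 0.990% and 2.02% of all tested genes outside the interferon list. Cd80 (0.69 ± 0.08) and Cd74, the invariant chain (0.64 ± 0.11), rose and Cd276 (-0.67 ± 0.10) fell, with a median of 0.02. None was called without the block, and Cd80 alone was called without a RAW array of experiment 1.

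Inflammatory and early response genes were called in both directions. Of 39 NF-kB and inflammatory targets 1 rose (2.56%) and 3 fell (7.69%), with a median of 0.01. Over all tested genes outside the interferon list 0.990% rose and 2.02% fell. The prostaglandin synthase gene Ptgs2 stood at 10.31 and 11.42 alone and 9.53 and 10.98 in co-culture and changed by -0.61 ± 0.11, the NF-kB inhibitor gene Nfkbie by -0.66 ± 0.10, Tnfaip2 by -0.47 ± 0.08 and the kinase gene Ikbke by 0.63 ± 0.11. With its probe sets averaged Tnfaip2 changed by -0.26 and was not called (adjusted p = 0.11). The calls of this list moved with the array left out, to 2 rises and 0 falls without a RAW array of experiment 1 and to 0 rises and 2 falls without one of experiment 2. In the immediate-early and MAPK feedback list, 3 of 50 rose (6%) and 3 fell (6%), and the median was 0.17. Without a RAW array of experiment 1 the rises numbered 6. Early growth response genes parted. Egr1 stood at 8.26 and 8.94 alone and 8.86 and 10.56 in co-culture and rose by 1.11 ± 0.22 (adjusted p = 0.0431), and Egr2 stood at 6.59 and 7.91 alone and 4.95 and 6.58 in co-culture and fell by 1.48 ± 0.11 (adjusted p = 0.00121). The co-culture array of experiment 1 lay under the floor for Egr2, so the size of its fall is not well measured. Egr1 was higher in co-culture in each experiment, although its groups overlapped, and it was not called without a RAW array of experiment 2 (adjusted p = 0.0613). Dusp6, a phosphatase that acts on ERK, rose by 1.13 ± 0.16 (adjusted p = 0.0157) with values of 8.02 and 9.18 alone and 8.80 and 10.67 in co-culture. The AP-1 gene Fos fell by 0.80 ± 0.13, Klf4 changed by -0.78 ± 0.11 and Etv5 by 0.66 ± 0.10. No member of either list was called without the block.

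Targets of TGF-beta signalling gave 4 falls (14.3%) and 0 rises among 28 tested, with a median of -0.10. Over all tested genes outside the interferon list 2.02% fell and 0.990% rose. Pmepa1, a feedback inhibitor of the pathway, stood at 11.11 and 11.71 alone and 9.08 and 10.30 in co-culture and fell by 1.72 ± 0.15 (adjusted p = 0.00184). The inhibitory SMAD gene Smad7 (-0.63 ± 0.10), the SMAD corepressor gene Skil (-0.57 ± 0.10) and Itgav were the others. Pmepa1, Smad7 and Skil are themselves inhibitors that the pathway induces. With its probe sets averaged Skil was not called (adjusted p = 0.0877). None of the 4 was called without the block, and 2 falls were called without a RAW array of experiment 1. Without a RAW array of experiment 2 the list gave 3 rises and 4 falls, so the absence of rises did not hold there.

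Genes of macrophage identity were mostly lower where they were called. Among 32 genes of microglia and resident macrophages 7 fell (21.9%) and 1 rose (3.1%), with a median of -0.18. Outside the interferon list 2.02% of all tested genes fell and 0.990% rose. In both experiments 20 members were lower, against 3823 of 13032 genes outside that list. Besides Olfml3, Cx3cr1, Itgax, Tgfbr1, Itgb5 and Cd9 the called falls included Ltc4s, which makes leukotriene C4. Ltc4s stood at 8.12 and 8.32 alone and 6.99 and 7.19 in co-culture and fell by 1.14 ± 0.09 (adjusted p = 0.0016). The called rise was Entpd1 (0.53 ± 0.09), dim in RAW alone and not called without a RAW array of either experiment. Without the block 2 of the falls were called.

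RAW cells are known to form osteoclasts, and the osteoclast list gave 4 falls (17.4%) and 1 rise (4.35%) among 23 tested, with a median of -0.17. Over all tested genes outside the interferon list 2.02% fell and 0.990% rose. Nfatc1, the regulator of osteoclast formation, stood at 10.77 and 10.72 alone and 9.23 and 9.76 in co-culture and fell by 1.25 ± 0.16 (adjusted p = 0.00921). Mitf, a regulator of lysosomal and osteoclast genes, changed by -0.99 ± 0.10, the cathepsin gene Ctsk by -0.88 ± 0.17 and Acp5, tartrate-resistant acid phosphatase, by -0.83 ± 0.15. The rise was Car2, carbonic anhydrase 2, the largest outside the interferon list. It stood at 6.33 and 6.31 alone and 8.81 and 8.10 in co-culture and rose by 2.14 ± 0.16 (adjusted p = 0.00103, and 0.0257 without the block). The falls numbered 2 without a RAW array of experiment 1 and 6 without one of experiment 2. Of 32 macrophage regulators and markers, 0 rose and Mitf, Adgre1 and the transcription factor gene Cebpa (-0.55 ± 0.11) fell.

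NRF2 and glutathione genes held the most called falls of any list. Of 47 tested members 12 fell and 1 rose, 25.5% and 2.13% against 2.02% and 0.990% of all tested genes outside the interferon list. In both experiments 30 were lower, against 3823 of 13032 genes outside that list, and the median of the 47 was -0.16. Ephx1, an epoxide hydrolase, stood at 9.11 and 9.26 alone and 7.84 and 8.14 in co-culture and fell by 1.20 ± 0.09 (adjusted p = 0.0014). Gclm, the regulatory subunit of the enzyme that starts glutathione synthesis, stood at 11.94 and 12.85 alone and 10.71 and 11.73 in co-culture and fell by 1.18 ± 0.09 (adjusted p = 0.00113). The co-culture value of Gclm was lower in each experiment, and its groups did not overlap, as for 12.3% of all tested genes with co-culture lower. Gclc, the catalytic subunit, fell by 0.72 ± 0.10. Catalase (Cat) fell by 1.03 ± 0.12, the microsomal transferase gene Mgst2 by 1.02 ± 0.13, Gstm1 by 0.82 ± 0.09, the sulfiredoxin gene Srxn1 by 0.69 ± 0.11 and the malic enzyme gene Me1 by 0.56 ± 0.08. Cbr3, Glrx and Aldh2 were the other falls besides Hmox1, and the glutathione transferase gene Gsta4 rose by 0.60 ± 0.09. Without the block Ephx1 alone was called. The falls numbered 5 with a block shared by the lines and 7 without a RAW array of experiment 1.

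Of 32 tested genes of iron and haem 3 fell (9.4%, against 2.02% of all tested genes outside the interferon list) and 0 rose. Slc40a1, ferroportin, the exporter of iron, stood at 6.75 and 6.32 alone and 4.93 and 4.87 in co-culture and fell by 1.63 ± 0.11 (adjusted p = 0.000681), to under the floor, so the size of this fall is not well measured. Hmox1, which opens the haem ring and frees its iron, stood at 11.15 and 11.74 alone and 10.05 and 10.87 in co-culture and fell by 0.98 ± 0.12 (adjusted p = 0.00942). Slc48a1, a haem transporter, fell by 0.77 ± 0.09. The metal-binding proteins Mt2 (0.77 ± 0.10) and Mt1 (0.54 ± 0.09) rose, the 2 called members of 18 metallothionein and zinc transport genes. They made up 11.1% of these, against 0.990% rises over all tested genes outside the interferon list. The median of the 18 was -0.01. Neither Mt2 nor Mt1 was called without the block, and Mt1 lost its call without a RAW array of either experiment.

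The ATF4 amino-acid response moved upwards. Of 51 tested members 9 rose (17.6%, against 0.990% of all tested genes outside the interferon list) and 0 fell. In both experiments 44 were higher, against 4159 of 13032 genes outside that list, and the median was 0.28 against 0.01. Stc2, a secreted glycoprotein of the stress response, stood at 7.82 and 8.17 alone and 9.17 and 9.03 in co-culture and rose by 1.11 ± 0.14 (adjusted p = 0.00936, and 0.066 without the block). Trib3, a pseudokinase that restrains the response, stood at 8.12 and 7.33 alone and 9.15 and 8.00 in co-culture and rose by 0.85 ± 0.13 in overlapping groups. Chac1, which breaks down glutathione, changed by 0.74 ± 0.12, the serine synthesis gene Psat1 by 0.63 ± 0.11, Cth, which makes cysteine, by 0.59 ± 0.10 and Atf4 itself by 0.42 ± 0.08. Vegfa, Herpud1 and the asparaginyl-tRNA synthetase gene Nars completed the list. Without the block 0 of the 9 were called, and 5 rises were called without a RAW array of experiment 1. Without one of experiment 2, 8 rises and 1 fall were called.

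Hypoxia targets and glycolysis genes were also called in the upward direction only. Of 32 hypoxia targets 6 rose (18.8%, against 0.990% of all tested genes outside the interferon list), with a median of 0.24. Ndrg1 stood at 8.44 and 9.23 alone and 9.75 and 10.30 in co-culture and rose by 1.19 ± 0.16 (adjusted p = 0.0113). Selenbp1 (0.83 ± 0.10), the mitophagy gene Bnip3 (0.81 ± 0.11), the vascular growth factor gene Vegfa (0.80 ± 0.10), Ak4 and Pfkfb3 were the others. Vegfa was not called with its probe sets averaged (adjusted p = 0.0912), and the probe set brightest over the RAW arrays changed by 0.31 (adjusted p = 0.493), so its place among the rises of the secreted factor, ATF4 and hypoxia lists rested on the probe set used. Of 18 glycolysis genes 16.7% rose, with a median of 0.16 over the 18. The rises were the lactate exporter gene Slc16a3 (0.68 ± 0.11), hexokinase 2 (Hk2, 0.51 ± 0.09) and the phosphofructokinase gene Pfkl (0.46 ± 0.09). In CT26 cells the medians of the same lists were 0.25 and 0.14, with 0 genes called in that line. Without the block 0 of these RAW calls were made. Without a RAW array of experiment 2 none of the 3 glycolysis genes was called, at adjusted p of 0.0801 (Slc16a3), 0.139 (Hk2) and 0.152 (Pfkl). In a fit of the RAW arrays alone Hk2 (adjusted p = 0.0537) and Pfkl (0.0635) were not called, nor was Pfkl with its probe sets averaged (0.0935).

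**Figure D3:**
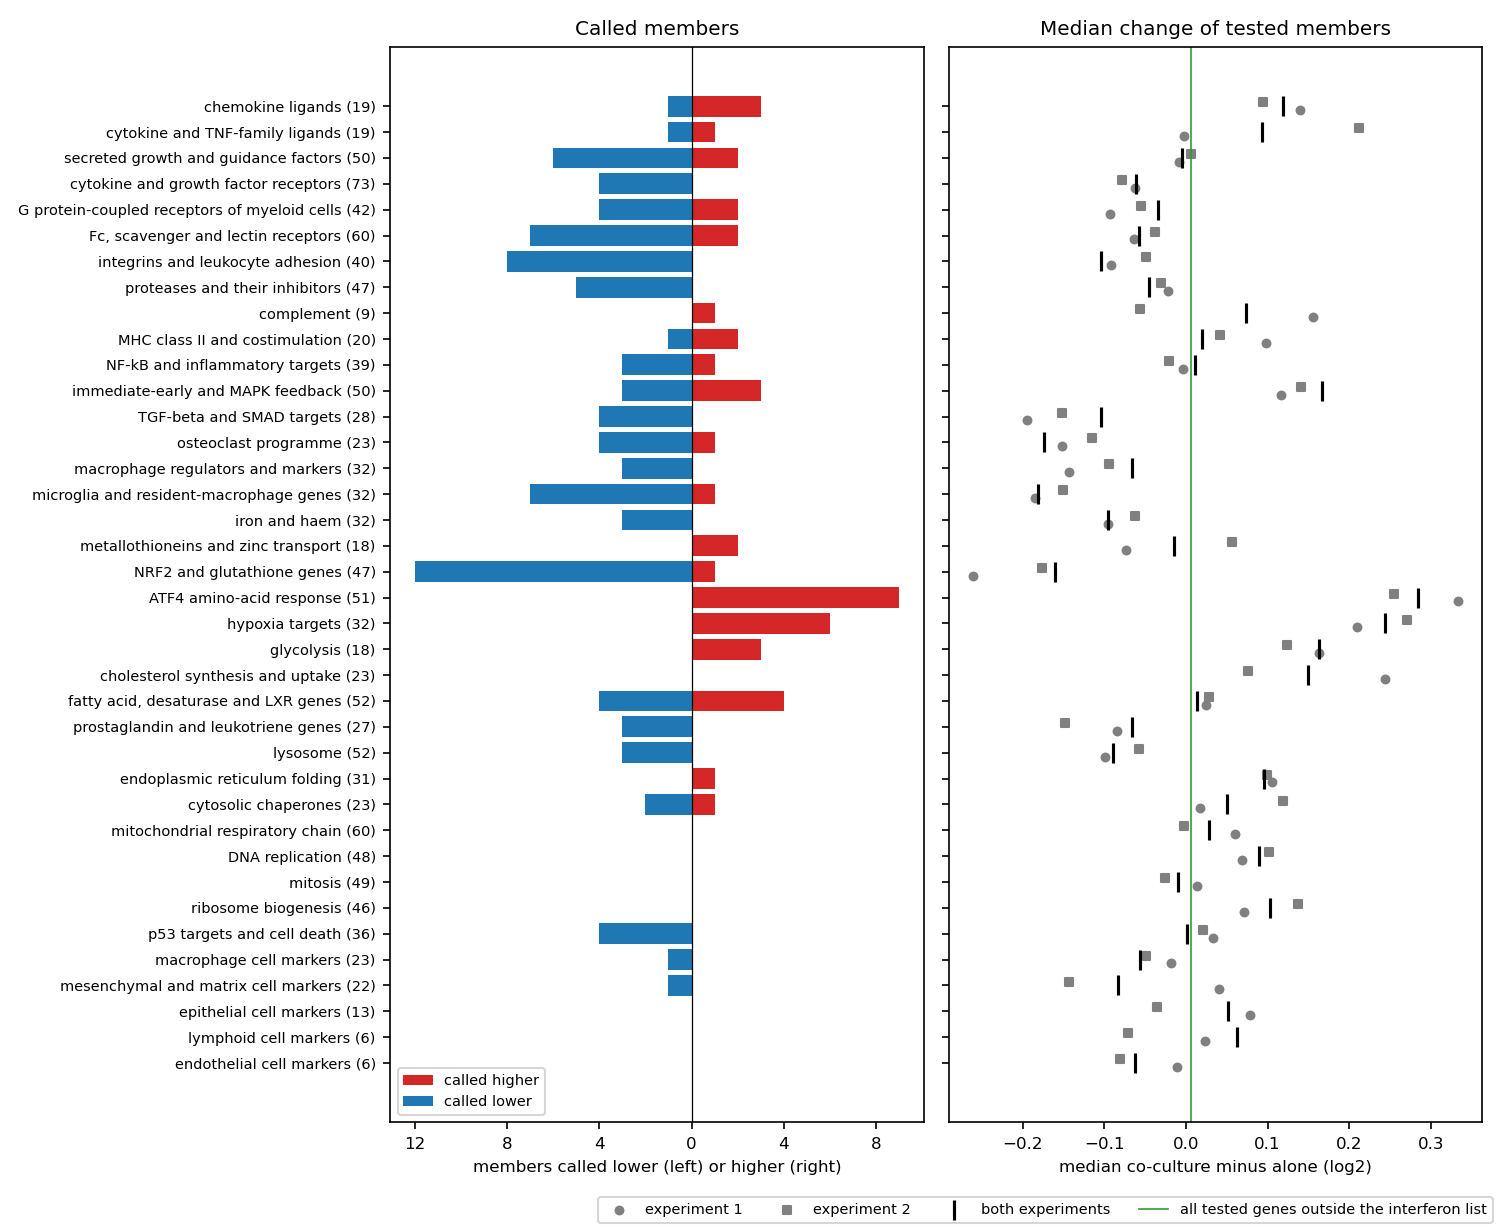
Left, the number of tested members of each gene list shown (in brackets) that were called lower, drawn to the left of 0, or higher, drawn to the right. Right, the median co-culture minus alone change (log2) of the tested members in experiment 1, experiment 2 and both, with a line at the median of all tested genes outside the interferon list, 0.01. The ATF4 list lies farthest right at 0.28, and the NRF2 list has 12 lower calls.

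Lipid genes were called in both directions. Scd1 and Scd2 encode stearoyl-CoA desaturases, which make monounsaturated fatty acids. Scd1 stood at 5.36 and 6.65 alone and 7.85 and 7.48 in co-culture and rose by 1.66 ± 0.33 (adjusted p = 0.0455), with changes of 2.48 in experiment 1 and 0.83 in experiment 2. Scd2 stood at 10.83 and 11.08 alone and 12.84 and 12.36 in co-culture and rose by 1.64 ± 0.16 (adjusted p = 0.00329). Other probe sets rose by 1.38 for Scd1 and by 1.81 and 1.92 for Scd2. Abca1, the exporter of cholesterol to apolipoproteins, stood at 6.35 and 6.38 alone and 8.05 and 7.26 in co-culture and rose by 1.29 ± 0.18 (adjusted p = 0.0122), and 2 dimmer probe sets rose by 0.69 and 0.54. These genes were brighter in CT26 alone than in RAW, at 11.48 for Scd1, 13.53 for Scd2 and 9.30 for Abca1, as was Ndrg1 at 10.88. Krt20, at 11.46 to 11.55 in the CT26 arrays, lay under the floor in all 4 RAW arrays. Whether RNA of CT26 cells reached the RAW samples was not tested.

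Smpdl3a, a phosphodiesterase, fell by 0.94 ± 0.09 and Lipa, the lysosomal lipase that frees cholesterol, stood at 13.20 and 13.40 alone and 12.49 and 12.58 in co-culture and fell by 0.77 ± 0.09 (adjusted p = 0.00548). Cpt1a, which brings fatty acids into mitochondria, changed by -0.66 ± 0.09 and the acyl-CoA synthetase gene Acsl3 by 0.59 ± 0.09. In the list of fatty acid, desaturase and LXR genes 4 of 52 rose and 4 fell (7.69% each), with a median of 0.01. Among all tested genes outside the interferon list 0.990% rose and 2.02% fell. Without the block 0 members of this lipid list were called. Fabp7, a fatty acid binding protein, was not on the lipid list. It stood at 11.18 and 10.34 alone and 8.90 and 8.98 in co-culture and fell by 1.82 ± 0.20 (adjusted p = 0.00484). Outside the interferon list 4159 of 13032 tested genes were higher in both experiments and 3823 lower. Of 23 genes of cholesterol synthesis and uptake 0 were called, although in both experiments 17 were higher and 0 lower, at a median of 0.15. Insig1 (0.43 ± 0.09, adjusted p = 0.0616) and Dhcr7 (0.32 ± 0.08, adjusted p = 0.0996) had the largest statistics there, and Insig1 was called with a variance trend on mean signal (adjusted p = 0.026), with probe sets averaged (0.0481) and with the floor at the 60th percentile (0.0421). Of 27 prostaglandin and leukotriene genes Ephx1, Ltc4s and Ptgs2 fell (11.1%) and 0 rose, and 2 of these falls were called without the block.

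Among 52 lysosome genes Mitf, Lipa and the sulfatase gene Sgsh (-0.63 ± 0.11) fell (5.77%, against 2.02% of all tested genes outside the interferon list) and 0 rose. In both experiments 33 of the 52 were lower, against 3823 of 13032 genes outside that list, and the median of the 52 was -0.09. With its probe sets averaged Sgsh changed by -0.31 and was not called (adjusted p = 0.0859). Of 31 endoplasmic reticulum folding genes Herpud1, of the degradation pathway, was called (0.51 ± 0.08), but not without a RAW array of either experiment. Of 23 cytosolic chaperones the HSP70 gene Hspa1b (-0.85 ± 0.08) and Dnajb4 (-0.81 ± 0.10) fell (8.70%), and Fkbp4 rose by 0.46 ± 0.09 but was not called with its probe sets averaged (adjusted p = 0.148) or without a RAW array of either experiment. No gene was called among 60 of the respiratory chain, 48 of DNA replication, 49 of mitosis or 46 of ribosome biogenesis, with medians of 0.03, 0.09, -0.01 and 0.10. The largest statistics there belonged to Sdhd (0.36 ± 0.08) and Ndufa4 (-0.25 ± 0.08), to Orc1 (0.37 ± 0.08) and Mcm2 (0.32 ± 0.09), to Kif20b (-0.35 ± 0.08) and Cenpf (-0.27 ± 0.09), and to Rrp9 (0.33 ± 0.08) and Polr1a (0.24 ± 0.08). With the variance trend Sdhd, Ndufa4, Orc1, Mcm2 and Rrp9 were called. Of 36 p53 and cell death genes 4 fell (11.1%), Trp53inp1 (-0.62 ± 0.10), Zmat3 (-0.57 ± 0.11), Bcl2l11 (-0.52 ± 0.10) and Phlda3 (-0.52 ± 0.09), and 0 rose. Most of these 4 calls were lost when a RAW array of either experiment was left out. The absence of rises did not hold without a RAW array of experiment 2.

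A few of the largest changes fell in none of these lists. Gas7, a growth arrest gene, stood at 7.21 and 8.97 alone and 9.12 and 10.27 in co-culture and rose by 1.60 ± 0.16 (adjusted p = 0.0033), while its other probe sets rose by 0.16 to 0.73. Serinc2 stood at 8.21 and 9.72 alone and 6.62 and 7.92 in co-culture and fell by 1.69 ± 0.24 (adjusted p = 0.0141). The experiments of both genes differed by more than 1 log2 unit within each condition. Ndrg4 stood at 8.85 and 7.60 alone and 6.75 and 6.83 in co-culture and fell by 1.43 ± 0.27 (adjusted p = 0.0376). With the probe sets of Ndrg4 averaged the fall was not called (adjusted p = 0.0575). Samd9l, which is known to be induced by interferon but was missing from the list used here, rose by 1.65 ± 0.11 (adjusted p = 0.000535), and the gene model Gm20559 rose by 1.58 ± 0.08. The count of rises outside the list therefore still holds interferon-inducible genes.

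Solute carriers, a group taken by symbol after the values had been seen, gave 9 falls (3.61%) and 3 rises (1.20%) among 249 tested, with a median of -0.0013, near the shares of 2.02% and 0.990% over all tested genes outside the interferon list. Besides Slc40a1 the largest falls were the carnitine and ergothioneine transporter gene Slc22a4 (-1.17 ± 0.15) and the amino acid transporter gene Slc43a2 (-1.08 ± 0.12). Slc22a4 ended near or under the floor. The choline transporter gene Slc44a1 changed by -0.67 ± 0.09, but with its probe sets averaged by -0.28 (adjusted p = 0.11), and the vitamin C transporter gene Slc23a2 changed by -0.64 ± 0.09. Slc15a3, a lysosomal peptide and histidine transporter, rose by 1.05 ± 0.14.

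The same contrast in CT26 gave 0 called genes with limma, with 752 genes at an unadjusted p under 0.05 with the block and 107 without it. The co-culture effect differed between the lines for 98 genes (0.743%), of which 63 lay outside the interferon list (0.483%). Without the block 1 gene was called in this contrast. Of the 28 largest changes outside the list, 15 differed between the lines, and 9 of these lay above the floor in at least 1 CT26 array. Cav1 was bright in both lines, and its RAW effect minus its CT26 effect was -2.0 ± 0.16 (adjusted p = 0.00436). Pmepa1 stood at 10.57 in CT26 alone and its difference was -1.59 ± 0.21 (adjusted p = 0.0251). Cx3cr1 (-2.26 ± 0.41, adjusted p = 0.0814), Scd1 (1.54 ± 0.46, adjusted p = 0.257) and Ndrg1 (0.49 ± 0.22, adjusted p = 0.472) did not pass that test. Vegfc, Fgf13, Il10, Slc40a1, Ltb and Gas7 lay under the floor in all 4 CT26 arrays. Over the 392 called genes outside the list, the median size of the change was 0.645 log2 units in RAW and 0.0851 in CT26. The genes were chosen on the RAW change, so the first of these sizes is a description. Of the 392 genes, 235 had the same sign in both lines. Equal signs were not counted over all tested genes, so this number is a description too.

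**Figure D4:**
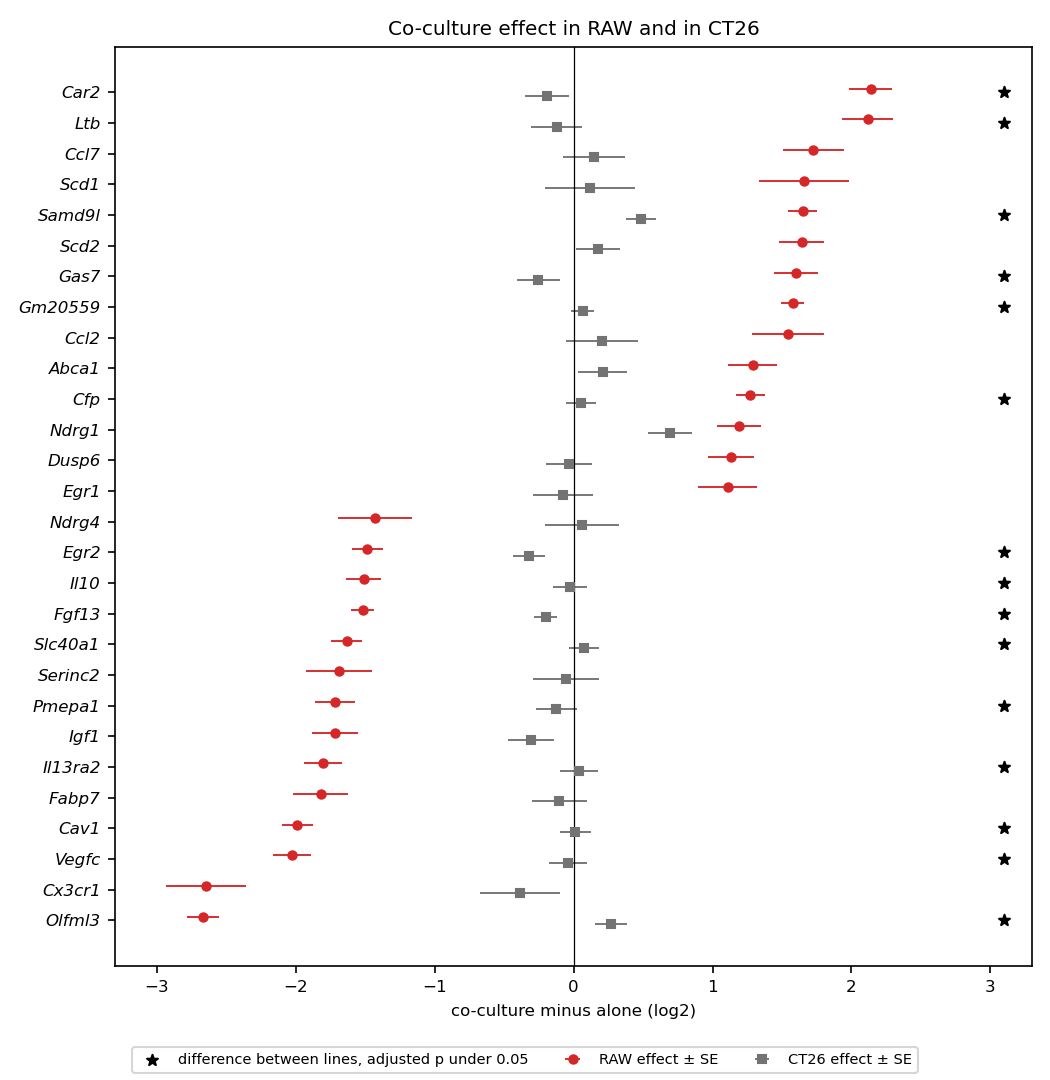
For the 28 largest called changes outside the interferon list, the co-culture minus alone change (log2) is drawn for RAW (circles) and CT26 (squares), with bars of 1 SE from the model over 2 experiments. Stars mark the 15 genes whose difference between the lines had an adjusted p under 0.05, and no CT26 change exceeded 0.70 log2 units in size.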

How the data were processed

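RNA was measured on 8 Affymetrix arrays, and the deposited log2 values were made by the authors with RMA (affy), as the submitters' processing notes record without versions. RMA understates the folds of dim genes. Of 45101 probe sets, 64 were controls, 34945 had 1 symbol in the platform annotation, 932 had several and 9160 were not listed there. A gene was tested where both arrays of some group had its probe set over the array's 40th percentile.

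The contrast was fitted with limma 3.58.1 in R 4.3.3 on all 8 arrays, with the experiment as a block in each line and 2 residual degrees of freedom. The experiment numbers of the labels pair the samples: deviations of same-numbered arrays correlated at 0.765 within RAW, 0.754 within CT26 and 0.484 to 0.561 between lines. The block was chosen because the comparison pairs arrays by number, and it was known to raise the count of calls. Gene lists were described by counts and medians, with genes of the interferon list left out of the others. The counts of 1 list are not reported here. Named were the 14 largest called rises and falls outside that list, up to 4 called members of each list (or the 2 with the largest statistics) and 3 interferon genes; further called members, Eps8, Fbxw17 and Mfap3l were named after their values were seen. Members and lists were chosen with earlier results of these data known. On simulated data for this contrast over 13196 genes, the fit recovered 25 of 67 changes of 0.5 log2 units, 64 of 67 of 1 and 66 of 66 of 2, with 11 false calls among 166. The simulated noise was normal, with each gene's spread drawn from the fitted limma prior and equal in both lines. The assumptions of the fit held there by construction, so these counts cannot judge the choice of block or the pooling with CT26.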

Additional observations from a re-analysis of the deposited data

Results flagged for a closer look

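The co-culture effect in RAW minus that in CT26 had an adjusted p under 0.05 for 33 of the named genes, by limma with the experiment as a block in each line. Without the block 1 gene was called in this contrast. The differences below are in log2 units, and adjusted p lay between 0.000529 (Rtp4) and 0.0399 (Hmox1).

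Among signals, receptors and surface genes the differences were Ltb (2.24), Cfp (1.22), Olfml3 (-2.93), Vegfc (-1.99), Fgf13 (-1.32), Il10 (-1.49), Il13ra2 (-1.84) and Cd300a (-1.01). Among adhesion, membrane and protease inhibitor genes they were Itgal (-1.41), Itga5 (-1.26), Itgav (-0.87), Cav1 (-2.0), Cav2 (-1.10), Serpinb1b (-1.33) and Serpinb9b (-1.18). In signalling genes they were Pmepa1 (-1.59) and Egr2 (-1.16). Among metabolic and transport genes they were Car2 (2.33), Slc40a1 (-1.71), Slc15a3 (1.32), Hmox1 (-1.19), Ephx1 (-1.19), Gclm (-1.26), Ltc4s (-1.08), Selenbp1 (0.99) and Smpdl3a (-0.90). Rises of interferon genes and of genes in no list differed as well, with Rtp4 (3.85), Usp18 (3.42), Ifi44l (4.10), Samd9l (1.17), Gm20559 (1.51) and Gas7 (1.86). Nfkbie, an inhibitor of NF-kB, moved in opposite directions, with -0.66 in RAW and 0.84 in CT26, a difference of -1.50, although its CT26 change was not called. Ltb, Gas7, Vegfc, Slc40a1, Fgf13, Il10, Ifi44l, Cd300a, Serpinb1b, Selenbp1, Smpdl3a and Slc15a3 lay under the floor in all 4 CT26 arrays, where a fall could not be seen, so their difference rests mainly on the RAW change.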

How the results depend on the processing

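Without the replicate block limma called 33 genes, 22 higher and 11 lower, of which 5 higher and 11 lower lay outside the interferon list, and the line difference was called for 1 gene. With a replicate block shared by both lines the counts were 146, 67 and 79, then 22 and 78, and 11. With a variance trend on mean signal they were 898, 418 and 480, then 324 and 477, and 306. Leaving out 1 array in turn gave 318 to 466 genes, 175 to 193 higher and 143 to 280 lower, 98 to 118 and 141 to 278 outside the list, and 63 to 173 differences; leaving out a RAW array leaves 1 pair, whose spread is taken from CT26. Without experiment 1 the fit shared 248 of the 470 genes, and without experiment 2 it shared 287. Cd3d, not called, ran from -0.48 to 0.0070 with 1 array left out, the latter without RAW alone or RAW co-culture replicate 2. The 117 named genes include uncalled ones, the 2 with the largest statistics of each list without a call. Of the called ones, 85 lost their call without the block, 54 with the shared block and 12 with probe sets averaged. The other filters, probe set choices, robust prior and normalizations called 454 to 592 genes. With 2 arrays a group, their number limits precision.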
